A study of Mus musculus with 18 samples.

Results

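High grade dysplasia with active inflammation, taken from the colorectum of mice at the end of week 8 of a carcinogen and colitis protocol, was compared with normal colorectal mucosa across all genes of a whole-genome array. The comparison uses 6 of the 18 arrays of the series: the 3 arrays titled as 8-week high grade dysplasia and the 3 titled as normal colorectal mucosa, grouped by those titles alone. The mice were male ICR, an outbred stock, and were 6 weeks old when the protocol began. The lesion group received azoxymethane (AOM), a carcinogen that acts on the colon, as 1 intraperitoneal dose of 10 mg/kg on day 1. Dextran sulphate sodium (DSS), a polymer that damages the lining of the colon, was then given in the drinking water in 3 cycles. The first, of 2%, ran from day 8 until day 14, the next, of 1.5%, from day 29 until day 33, and the last, again of 1.5%, from day 50 until day 54. Its tissue was collected on day 56, 2 days after the last DSS. The normal group received saline in place of AOM and distilled water in place of DSS, and its tissue was collected on day 14. The series' other groups, of 3 arrays each, are inflamed mucosa on day 14, low grade dysplasia on day 28, high grade dysplasia on day 42 and carcinoma on day 140. The stage of each lesion was read under the microscope by the submitters. Because the normal tissue dates from day 14, lesion, age, AOM and DSS cannot be told apart in this comparison, and no group given AOM alone or DSS alone was analysed here.

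In colitis-associated cancer, repeated injury and repair of the colonic lining occur beside mutations that switch on Wnt/beta-catenin signalling, the pathway that keeps crypt stem cells dividing. The differentiated cells of the crypt are absorptive colonocytes, which move salt, water and short-chain fatty acids, mucus-making goblet cells and hormone-making enteroendocrine cells. Active inflammation is the presence of neutrophils, which are drawn by CXC chemokines from the epithelium and stroma.

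Each value is the deposited linear signal of a probe set, and changes are differences of log2(signal + 16), lesion minus normal, given with the standard error (SE). The constant 16 damps noise near background, so changes of dim genes are understated. A gene passed when its Benjamini-Hochberg adjusted p in limma, a linear model with a moderated spread fitted to all 18 arrays and 12877 genes, was below 0.05. Every adjusted p here comes from that test unless another setting is named. Each SE pools the spread within all 6 groups, so arrays outside the comparison also set it. The median standard deviation over genes was 0.21 in the lesion group and 0.13 to 0.19 in the other groups. The SE can therefore be too small for genes whose lesion arrays lie far apart. Array medians ran from 55.7 to 57.8, and the number of arrays limits the precision.

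The 3 lesion arrays differed from each other far more than the 3 normal arrays. Pearson's r over genes between normal arrays was 0.980 to 0.985. Between lesion arrays it was 0.942 for replicates 1 and 3, 0.949 for replicates 2 and 3 and 0.859 for replicates 1 and 2. Among the lesion arrays 527 genes ranged over at least 2 log2 units, against 50 among the normal arrays, and replicate 3 was the highest of the 3 for 46 of the 527 and the lowest for 10. Lesion replicate 2 also carried genes of male accessory sex glands: Pbsn (probasin, a prostate protein) read 8.57, 10938 and 6.19 in lesion replicates 1, 2 and 3. Normal replicate 2 read 2574 for Pbsn, against 5.53 and 7.16 in the other normal arrays. Svs4, a seminal vesicle protein, read 9541 in lesion replicate 2 and at most 68.0 in the other 5 arrays. In all, 7 of 17 listed accessory gland genes were measured; their summed signal was 6086, 41630 and 10495 in the lesion arrays and 10350 to 12634 in the normal arrays, where Spink1 and Ceacam10, which the colon arrays carry at high levels, made up most of it. The part of this signal in the results was not tested. The 3'-to-5' signal differences of Gapdh and Actb and the 18S signal gave exact two-sided permutation p-values of 0.200, 0.900 and 0.700, where 3 arrays against 3 cannot go below 0.1.

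Against normal mucosa, 623 genes were higher in the lesions (4.84% of those tested) and 827 were lower (6.42%), 11.3% in all. Of these, 172 of the higher (1.34% of those tested) and 322 of the lower genes (2.50%) changed at least 2-fold. The median change over all genes was 0.03. The 4.84% and 6.42% are the shares to set beside the counts of list members below. All 3 lesion arrays lay outside the normal range for 15.5% of genes on the high side and 17.9% on the low side. The counts changed when a single array was left out: they were 1318 higher and 884 lower without lesion replicate 1, 225 and 328 without lesion replicate 2, and 237 and 462 without lesion replicate 3. Without normal replicate 1, 2 or 3 they were 274 and 333, 118 and 215, and 181 and 416. Fewer arrays also lower the precision, and that effect was not separated from the weight of a particular array, here or for the lists and genes below. With both replicates 2 left out, a setting chosen after seeing the data, 11 genes were higher and 35 lower. A core of 275 genes, 103 higher and 172 lower, passed with all arrays and again whichever single array of the 6 was left out. Among the 25 largest increases with non-overlapping arrays 7 belonged to this core, and among the 25 largest decreases 14 did.

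**Figure D1:**
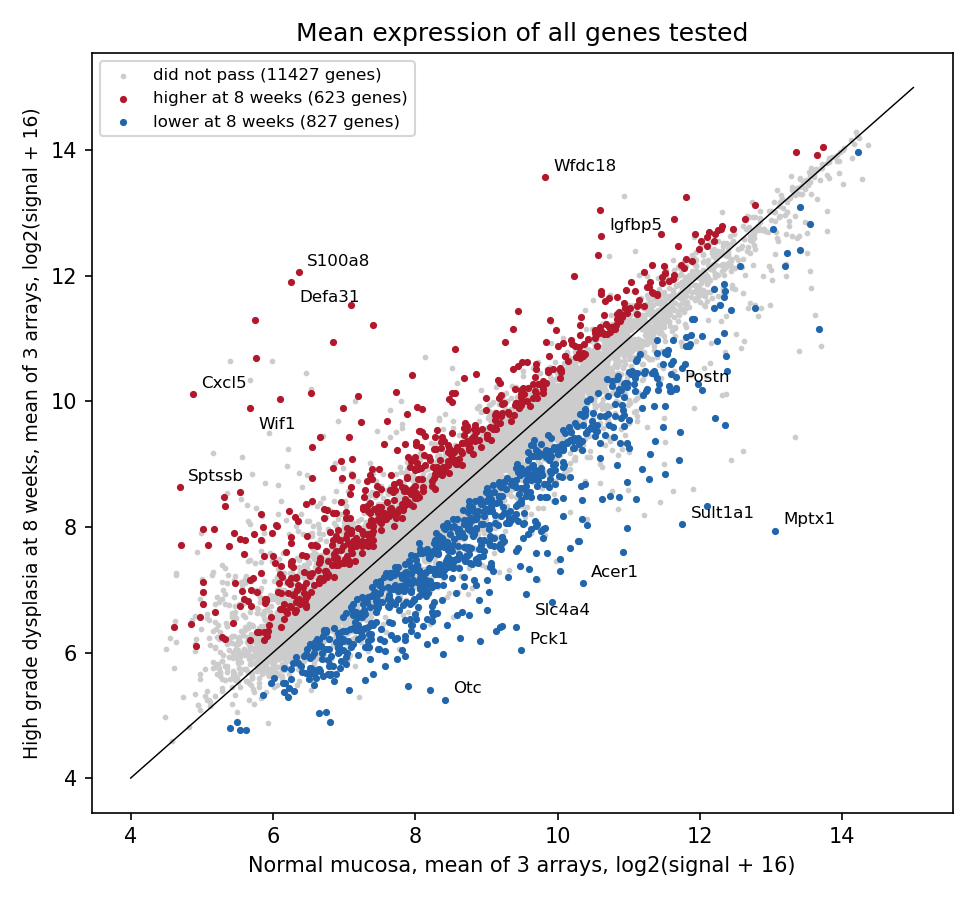
Mean log2(signal + 16) of each gene tested in normal mucosa (x axis) and in high grade dysplasia at 8 weeks (y axis), 3 arrays each. Red points are the 623 genes that were higher and blue points the 827 that were lower, grey points did not pass, and the line marks equal means; S100a8 (5.70), Defa31 (5.66) and Cxcl5 (5.23) lie farthest above the line among the labelled genes, and Mptx1, Sult1a1 and Otc lie far below it.

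The neutrophil genes S100a8 and S100a9 and the neutrophil-attracting chemokine Cxcl5 were among the largest increases, beside Defa31, which is described with the Paneth cell genes. S100a8, a subunit of the neutrophil protein calprotectin, read 75.6, 41.7 and 89.9 in normal replicates 1 to 3 and 12595, 763 and 7947 in lesion replicates 1 to 3. All lesion arrays lay above the normal arrays, lesion replicate 2 least. The change was 5.70 ± 1.30 (SE; adjusted p = 0.0175), and it did not pass without lesion replicate 3 or normal replicate 2 (adjusted p up to 0.0707). S100a9, its partner, changed by 5.55 ± 1.40 (adjusted p = 0.0258) and kept its call only when lesion replicate 2 was left out. Lcn2, an iron-withholding protein of neutrophils and inflamed epithelium, read 92.1, 131 and 78.5 against 2826, 754 and 3455, a change of 4.10 ± 1.07 (adjusted p = 0.0292). Its call was lost without lesion replicate 3 or any 1 normal array (adjusted p up to 0.0822).

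Of 20 measured neutrophil genes 3 rose and 0 fell (S100a8, S100a9 and Lcn2), and the median change of the 20 was 1.37. Each of the 20 read above all normal arrays in lesion replicate 1 and in lesion replicate 3, and 11 did in lesion replicate 2, against 35.1%, 35.3% and 42.7% of all genes. The list's mean lay 2.54, 0.76 and 1.76 above normal in replicates 1, 2 and 3. Granule genes were uneven: Ngp, a granule protein, read 1285, 47.8 and 110 against 32.5 to 49.3 in normal (adjusted p = 0.356), and Mpo, myeloperoxidase, read 45.9, 62.7 and 32.9 against 27.0 to 30.8. The neutrophil receptor genes Cxcr2 and Csf3r changed by 0.30 and 0.26 (adjusted p = 0.674 and 0.708). Csf3r read 85.8 in lesion replicate 2, below all normal arrays. The count of 3 fell to 0 without lesion replicate 3 or normal replicate 2 and to 1 without normal replicate 1 or 3. In bulk tissue more cells of a type and more RNA per cell cannot be told apart, nor can fewer and less.

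The chemokine Cxcl5, which binds the neutrophil receptor CXCR2, read 15.7, 13.1 and 11.7 in normal mucosa and 2112, 368 and 1649 in the lesions. The arrays did not overlap. Its change of 5.23 ± 1.05 (adjusted p = 0.0106) passed with every single array left out (adjusted p up to 0.0431). It was the 1 of 7 neutrophil-attracting chemokines that passed, with a median of 1.68 over the 7. Cxcl2 read 19.6, 16.5 and 22.9 against 798.5, 235 and 946 (change 4.03, adjusted p = 0.0608), and Cxcl1 read 192, 99.8 and 103 against 3583, 271 and 1020 (2.85, adjusted p = 0.0875). Cxcl3 read 9.13, 7.18 and 6.00 against 103, 10.1 and 119 (1.68, adjusted p = 0.393). For Cxcl1, Cxcl2 and Cxcl3 too no lesion array was as low as a normal array, and replicate 2 was the lowest lesion array. Ppbp, Pf4 and Csf3 had changes of 0.12 to 0.59.

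The 250 bases before the start are shown for 3 neighbouring chemokine genes on chromosome 5 that read high in lesion replicates 1 and 3. Each carries the NF-kB consensus GGGRNNYYCC (R is A or G, Y is C or T, N is any base). It is the binding motif of a transcription factor of inflammation. Sequences are from RefSeq (build GRCm38.p6), plus strand, at chr5:90890995-90891244 for Cxcl1, chr5:90903649-90903898 for Cxcl2 and chr5:90785851-90786100 for Cxcl3, with the motif in capitals. In each, the motif is matched on both strands by 2 windows that overlap by all but 1 base, the first starting 71, 97 and 73 bases before the start. At least 1 match to the consensus, on either strand, occurs in 7.25% of all 32851 windows of this length. The share with such a double match was not computed. No match was found before Ppbp and Pf4, and Cxcl5 and Csf3 were not searched here. A match describes these letters and is not evidence of binding.
Cxcl1: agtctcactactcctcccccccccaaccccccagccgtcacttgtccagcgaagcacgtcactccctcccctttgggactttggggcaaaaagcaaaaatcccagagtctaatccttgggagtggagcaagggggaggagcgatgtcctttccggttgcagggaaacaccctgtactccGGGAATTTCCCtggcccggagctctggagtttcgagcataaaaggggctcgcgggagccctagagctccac
Cxcl2: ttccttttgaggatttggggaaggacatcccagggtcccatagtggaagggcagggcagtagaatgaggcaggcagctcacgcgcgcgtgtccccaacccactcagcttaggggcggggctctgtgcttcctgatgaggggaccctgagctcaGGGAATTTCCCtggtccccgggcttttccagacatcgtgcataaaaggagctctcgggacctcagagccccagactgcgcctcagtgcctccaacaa
Cxcl3: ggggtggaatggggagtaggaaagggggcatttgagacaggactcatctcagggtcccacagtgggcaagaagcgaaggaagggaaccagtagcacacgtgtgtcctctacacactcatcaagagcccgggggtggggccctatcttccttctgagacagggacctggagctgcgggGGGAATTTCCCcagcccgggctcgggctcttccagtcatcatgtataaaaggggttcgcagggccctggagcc

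Il6, Il1b and Ptgs2, mediators of active colitis, were highest in lesion replicate 1. Il6 read 8.76, 7.79 and 9.33 in normal mucosa and 559, 9.33 and 34.4 in the lesions (change 1.87 ± 0.90, adjusted p = 0.175). Il1b read 163, 102 and 115 against 1443, 120 and 418 (1.65 ± 1.04, adjusted p = 0.304). Ptgs2, the inducible cyclooxygenase, read 120, 101 and 149 against 597, 23.8 and 151 (0.21 ± 1.02, adjusted p = 0.913), with lesion replicates 1 and 3 above and replicate 2 below all normal arrays. Its change was -0.76 without lesion replicate 1. None of these 3 genes passed. Saa3, an acute-phase protein, read 151, 95.9 and 121 against 8294, 1192 and 2583 and rose by 4.44 ± 1.07 (adjusted p = 0.0223), a call lost without lesion replicate 3 or any 1 normal array (adjusted p up to 0.08).

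Macrophage and monocyte genes were also highest in lesion replicate 1 and lowest in replicate 2, with list means of 1.17, 0.26 and 0.64. Of 23 macrophage and monocyte genes 6 rose, among them Tyrobp (1.40 ± 0.37, adjusted p = 0.0318), Aif1 (1.12 ± 0.30, adjusted p = 0.0319) and the complement gene C1qa (0.71 ± 0.21, adjusted p = 0.0456). Cd163, the haemoglobin scavenger receptor of resident macrophages, fell: it read 103, 241 and 142 in normal mucosa and 37.4, 34.0 and 31.6 in the lesions, with no overlap (-1.75 ± 0.38, adjusted p = 0.0146; 0.072 without normal replicate 2). The median of the 23 was 0.70. The 6 became 1 without lesion replicate 1 and 0 without lesion replicate 3, normal replicate 2 or normal replicate 3.

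Of 16 B and plasma cell genes and 14 T and NK cell genes 0 passed limma's adjusted threshold, and 0 of the former and 1 of the latter had an unadjusted p below 0.05, against 30.2% of all genes. With only the 6 arrays 0 of both passed; 1 T and NK cell gene fell without lesion replicate 1 and 1 rose without lesion replicate 2. The lesion arrays pulled in opposite directions. In replicate 1, 15 of the 16 B and plasma cell genes lay above all normal arrays, against 35.1% of all genes. In replicate 2, 14 lay below them, against 34.1% of all genes. Ms4a1, the B cell antigen CD20, read 987, 517 and 1001 in normal mucosa and 3242, 179 and 1033 in the lesions. The list's mean was 1.33, -1.06 and 0.33 relative to normal. The T and NK cell list showed the same order, at 0.81, -0.79 and 0.28.

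Interferon-stimulated genes were not higher as a list. Of 25 measured, 1 rose (Ddx58, the RNA sensor RIG-I, by 0.53 ± 0.15, adjusted p = 0.0349, lost without lesion replicate 2 or 3 or normal replicate 1 or 3, adjusted p up to 0.111), and the median was -0.40. In lesion replicate 2, 22 of the 25 lay below all normal arrays, against 34.1% of all genes. In replicates 1 and 3, 8 and 9 did, against 39.7% and 33.3% of all genes. Normal replicate 2 stood above the other normal arrays for this list, at 0.66 against -0.43 and -0.23. The interferon-induced membrane proteins, which restrict viruses and are also raised by other signals, form a separate list, of which 3 of 5 rose; the difference between the lists was not tested. Ifitm1 read 1518, 1246 and 1881 against 7467, 10400 and 7738, a rise of 2.45 ± 0.39 (adjusted p = 0.0043). Ifitm3 read 3230, 3924 and 3618 against 7677, 12022 and 10234, a rise of 1.45 ± 0.23 (adjusted p = 0.00467). Both passed with every single array left out, and their arrays did not overlap; Ifitm2, the third, passed only without lesion replicate 1 when arrays were left out (adjusted p up to 0.115).

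The mean of 12 mast cell genes was 0.51, 1.02 and 2.14 above normal in lesion replicates 1, 2 and 3. The mucosal mast cell protease Mcpt2 read 195, 125 and 42.2 in normal mucosa and 266, 404 and 4721 in the lesions (2.78 ± 1.08, adjusted p = 0.101), and Mcpt1 read 192, 95.1 and 2750 in the lesions (2.24, adjusted p = 0.207). Of 12 genes 1 rose (Ms4a2, a chain of the IgE receptor, 12.8, 21.1 and 15.2 against 18.9, 468 and 143, highest in replicate 2; 2.11 ± 0.64, adjusted p = 0.0473) and 1 fell (Kit). Without lesion replicate 1, 6 of the 12 were higher; without lesion replicate 2 or 3, or normal replicate 1 or 3, none was. Kit, the receptor of mast cells and of the gut's pacemaker cells, read 260, 257 and 234 against 123, 77.8 and 147 (-1.05 ± 0.21, adjusted p = 0.0105).

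Targets of Wnt/beta-catenin were high in lesion replicates 2 and 3. In replicate 1 their mean was near the normal level, with members on both sides of it. Axin2, the feedback inhibitor used as the pathway's readout, read 215, 216 and 194 in normal mucosa and 159, 2212 and 1300 in the lesions. Lgr5, the receptor that marks crypt stem cells, read 87.2, 76.0 and 83.8 against 31.0, 1129 and 614. Replicate 1 lay below every normal array for both genes and replicates 2 and 3 lay above, and neither gene passed (Axin2 1.83 ± 0.70, adjusted p = 0.0939; Lgr5 1.72 ± 0.90, adjusted p = 0.214). Both passed when lesion replicate 1 was left out.

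Of 28 measured Wnt targets 5 rose and 0 fell, with a median of 1.15. The 5 were the secreted Wnt inhibitor Wif1 (37.1, 29.8 and 39.0 against 47.7, 4104 and 3263; 4.22 ± 1.25, adjusted p = 0.0454), the membrane inhibitor Apcdd1 (3.94 ± 1.10, adjusted p = 0.0362), the transcription factors Sp5 (30.3, 28.4 and 14.9 against 32.7, 989 and 666; 3.01 ± 0.91, adjusted p = 0.0474) and Myc (201, 155 and 166 against 259, 304 and 283; 0.65 ± 0.19, adjusted p = 0.0427), and the hyaluronan receptor Cd44 (663, 467 and 589 against 1175, 1381 and 1192; 1.11 ± 0.28, adjusted p = 0.0253). Myc and Cd44 were raised to a like level in all 3 lesion arrays, while Wif1, Apcdd1 and Sp5 rose in replicates 2 and 3. In replicates 2 and 3, 27 of the 28 lay above all normal arrays, against 42.7% and 35.3% of all genes. In replicate 1, 7 lay above and 15 below, against 35.1% and 39.7% of all genes. The list's mean was -0.12, 2.68 and 2.17. The count of 5 became 22 without lesion replicate 1, 1 without normal replicate 1 and 0 without lesion replicate 2 or 3 or normal replicate 2 or 3. With only the 6 arrays it was 2, and the limma adjusted p of Wif1, Apcdd1 and Sp5 was 0.155, 0.145 and 0.153.

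The 250 bases before the start of Sp5 (RefSeq, GRCm38.p6, chr2:70474673-70474922, plus strand) are shown because Sp5 was the 1 of 5 Wnt targets searched whose window holds the TCF/LEF core CTTTGA, the motif of the factors that bind beta-catenin. Both strands were searched. It has 2 matches, in capitals, starting 204 and 104 bases before the start; Axin2, Nkd1, Wif1 and Rnf43 have none in this window, and 13.8% of all windows hold the core.
Sp5: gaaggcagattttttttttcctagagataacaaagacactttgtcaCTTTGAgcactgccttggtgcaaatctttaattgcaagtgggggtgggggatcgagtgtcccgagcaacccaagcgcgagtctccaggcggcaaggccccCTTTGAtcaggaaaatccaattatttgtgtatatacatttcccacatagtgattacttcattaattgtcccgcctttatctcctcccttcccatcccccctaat

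Of 8 Paneth cell genes 2 rose and 0 fell, with a median of 1.48, and the count was 1 to 3 with an array left out. Defa31, an alpha-defensin of Paneth cells, which the normal colon lacks, read 57.2, 60.1 and 63.4 in normal mucosa and 178, 16936 and 17277 in the lesions (5.66 ± 1.27, adjusted p = 0.0169), a call lost without lesion replicate 2 or 3 or normal replicate 2 (adjusted p up to 0.0624). Near-identical defensin genes may share its probes. Mmp7, the matrix protease of Paneth cells and intestinal tumours and a Wnt target, read 42.1, 181 and 53.6 against 83.9, 4326 and 3768 (3.67 ± 1.19, adjusted p = 0.0576). Lyz1, a lysozyme of Paneth cells, read 11775, 10146 and 9506 in normal mucosa and 15005, 16649 and 16608 in the lesions. It rose by 0.62 ± 0.13 (adjusted p = 0.0111) and passed with each array left out. With so high a signal in normal mucosa, it does not mark Paneth cells alone here. Defa31 and Mmp7 were high in lesion replicates 2 and 3, while Lyz1 was above normal in all 3. Reg3g had another order, at 9075, 83.7 and 4496 against 41.0, 36.1 and 70.2 in normal mucosa, and Pla2g2a read 11322, 22966.5 and 3727 against 1340, 842.5 and 6386; neither passed (adjusted p = 0.0749 and 0.299). Ang4 and Itln1, other Paneth and goblet cell products, did not pass, and their normal arrays ranged from 1423 to 18755 and from 462 to 3698.

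Of 16 MAPK feedback genes and targets, which are switched on by growth factor and RAS signalling, 5 rose and 1 fell, with a median of 0.24. The phosphatase Dusp4 read 87.7, 56.0 and 39.1 in normal mucosa against 74.2, 532 and 564 (2.04 ± 0.57, adjusted p = 0.0362), and the transcription factor Etv5 read 74.1, 36.0 and 44.8 against 53.4, 674 and 357 (1.99 ± 0.60, adjusted p = 0.047). In both, lesion replicate 1 lay within the normal range, and leaving out any other array ended the call (adjusted p up to 0.116 and 0.156). Phlda1 rose in all 3 arrays (665, 514 and 916 against 1421, 4251 and 3446; 1.99 ± 0.51, adjusted p = 0.0274; up to 0.104 without lesion replicate 2 or 3 or normal replicate 1 or 2). The inhibitor Spry2 fell by 0.53 (adjusted p = 0.0461). The 5 became 0 without lesion replicate 2 or 3 or normal replicate 2 and 1 without normal replicate 1 or 3.

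**Figure D2:**
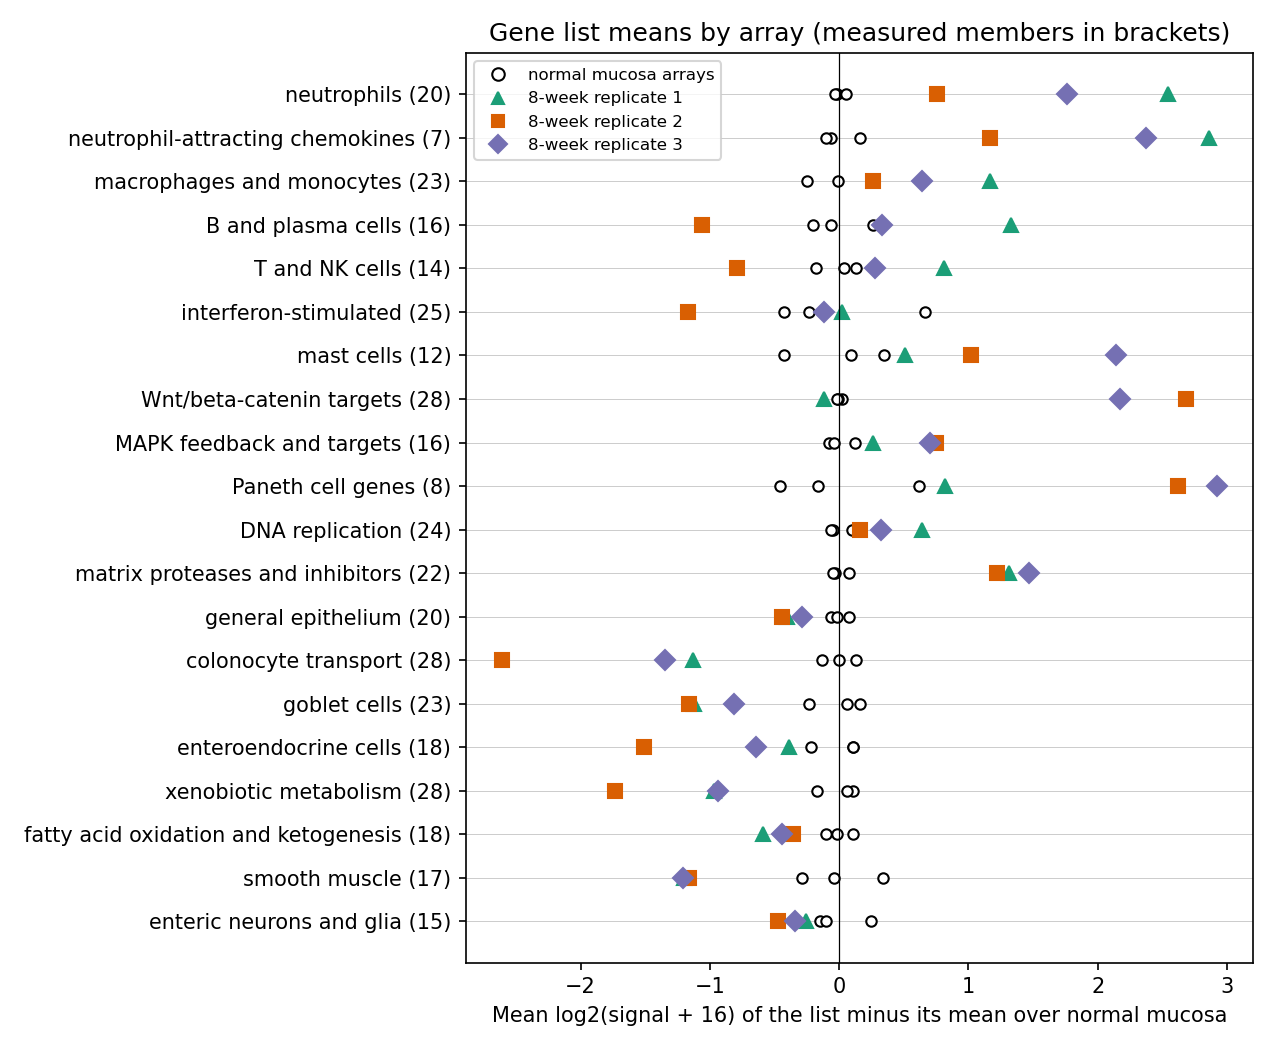
Mean log2(signal + 16) of each gene list on each array, minus the list's mean over the 3 normal arrays (x axis, log2 units), for 20 lists (y axis, measured members in brackets); open circles are normal arrays and coloured symbols the 3 lesion replicates. Neutrophil, macrophage, B cell and T cell lists are highest in replicate 1 and lowest in replicate 2 (neutrophils 2.54 and 0.76), mast cells are highest in replicate 3 (2.14), Wnt targets are near normal in replicate 1 (-0.12) and high in replicates 2 and 3 (2.68 and 2.17), and smooth muscle lies between -1.16 and -1.21 in all 3.

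Increases that were alike in all 3 lesion arrays included Sptssb, a small subunit of serine palmitoyltransferase, the enzyme that starts sphingolipid synthesis. It read 8.09, 11.2 and 10.0 in normal mucosa and 258, 550 and 389 in the lesions. The rise of 3.95 ± 0.45 (adjusted p = 6.67e-04) held with each array left out (adjusted p up to 0.00503) and with only the 6 arrays (0.00587), and a further probe set of the gene changed by 1.54. Wfdc18, a secreted whey acidic protein family member, read 1172, 588 and 1014 against 8844, 14806 and 13760 (3.75 ± 0.54, adjusted p = 0.00283). Myl7, a myosin light chain named for the heart atrium, read 118, 108 and 172 against 883, 1261 and 1096 (2.89 ± 0.42, adjusted p = 0.00283). For each of these genes the 2 groups were far apart, and the calls of Wfdc18 and Myl7 also held with each array left out.

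Other increases of this stable kind were secreted signals. The chemokine Cxcl14 read 95.9, 103 and 62.0 against 293, 1618 and 654 (2.78 ± 0.54, adjusted p = 0.00952), highest in lesion replicate 2. Inhbb, which encodes the beta B chain of activin and inhibin, read 43.0, 46.6 and 36.8 against 156, 382 and 232 (2.15 ± 0.39, adjusted p = 0.00762). Igfbp5, a binding protein of insulin-like growth factors, read 1575, 1754 and 1346 against 6934, 6158 and 5898 (2.02 ± 0.29, adjusted p = 0.00283), with a change of 0.31 in its other probe set. Igfbp4 rose by 1.27 ± 0.24 (adjusted p = 0.00857). Of 11 insulin-like growth factor genes 4 rose, with Igf1 (1.57 ± 0.46, adjusted p = 0.0419) and Igfbp7 as the others, and 1 fell (Igfbp6, -1.15 ± 0.29, adjusted p = 0.0275); the 4 became 2 without lesion replicate 2 or 3 or any 1 normal array.

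Of 22 matrix proteases and their inhibitors 4 rose and 0 fell, with a median of 1.33. Mmp10, stromelysin 2, read 84.0, 60.1 and 86.6 in normal mucosa and 1075, 898 and 1427 in the lesions (3.62 ± 0.76, adjusted p = 0.0122; 0.0533 without normal replicate 2). Plat, tissue plasminogen activator, read 108, 129 and 98.8 against 476, 1309 and 1308 (2.90 ± 0.62, adjusted p = 0.0132). Timp1, an inhibitor of metalloproteinases, read 139, 143 and 82.5 against 922, 643 and 521 (2.36 ± 0.49, adjusted p = 0.0116), and the membrane protease Mmp14 rose by 1.57 ± 0.28 (adjusted p = 0.00641). The groups did not overlap for any of these. They are the 4 that passed, and 11 of the 22 had all lesion arrays above normal, against 15.5% of all genes. The count ran from 3 to 5 except without lesion replicate 1, where it was 8. Mmp3 and Mmp13, stromal collagen- and matrix-degrading enzymes, were led by lesion replicate 1, at 2118.5 and 1346, and did not pass. Among 19 collagens 1 rose (Col18a1: 377, 346 and 333 against 1133, 1168 and 1019; 1.61 ± 0.28, adjusted p = 0.00641) and 2 fell, Col14a1 (-1.06 ± 0.30, adjusted p = 0.0397) and the basement membrane chain Col4a5 (217, 315 and 378 against 88.2, 42.9 and 49.0; -2.08 ± 0.38, adjusted p = 0.0071). Over all genes 4.84% rose and 6.42% fell. Col14a1 lost its call when either of lesion replicates 1 and 2 or any 1 normal array was left out (adjusted p up to 0.128). Postn, periostin, a product of fibroblasts below the crypts, read 2999, 3259 and 3448 against 1294, 1136 and 1078 and fell by 1.46 (SE 0.30, adjusted p = 0.011).

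The proliferation marker Mki67 did not pass: it read 1087, 1292 and 1071 in normal mucosa and 1529, 837 and 892 in the lesions (-0.13 ± 0.19, adjusted p = 0.691), with replicate 1 above and replicates 2 and 3 below all normal arrays. Of 24 mitosis genes 1 rose, the checkpoint gene Mad2l1 (566, 614 and 548 against 1144, 1156 and 958; 0.89 ± 0.19, adjusted p = 0.0138), and 1 fell, the transcription factor Foxm1 (-0.58 ± 0.16, adjusted p = 0.0345; up to 0.131 without lesion replicate 2 or 3 or normal replicate 2 or 3). Over all genes 4.84% rose and 6.42% fell. The mitosis list's mean was 0.56, 0.07 and 0.00. Of 24 DNA replication genes 4 rose by 0.44 to 0.78 (Ccne1, Gins1, Gins2 and Rrm1), 0 fell, and the median was 0.37. In lesion replicate 1, 23 of the 24 lay above all normal arrays, against 35.1% of all genes. The 4 became 1 or 2 with a lesion array left out and 0 without any 1 normal array. Parp1, a DNA break sensor, read 310, 291 and 337 against 544, 644 and 602 and rose by 0.90 ± 0.16 (adjusted p = 0.00762), also with each array left out. In sterol synthesis 4 of 17 genes rose, led by Cyp51 (0.91 ± 0.16, adjusted p = 0.00641), with a median of 0.36; the 4 became 6 without lesion replicate 1 and 1 or 2 without any other array.

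Large decreases included metabolic enzymes. Sult1a1, a sulphotransferase that conjugates phenols, read 3220, 3420 and 3637 in normal mucosa and 275, 164 and 334 in the lesions (-3.70 ± 0.62, adjusted p = 0.00553). Pck1, the gluconeogenic enzyme, read 665, 621 and 848 against 47.5, 22.6 and 99.9 (-3.46 ± 0.53, adjusted p = 0.00367). Acer1, an alkaline ceramidase, read 1126, 1567 and 1217 against 163, 92.6 and 120 (-3.24 ± 0.47, adjusted p = 0.00283). Otc, the urea cycle enzyme ornithine transcarbamylase, read 357, 323 and 300 against 18.4, 23.1 and 24.8 (-3.17 ± 0.44, adjusted p = 0.00228). For all of these the groups were apart by over 2 log2 units, and each passed with every single array left out. Mptx1, a mucosal pentraxin, had the largest fall (8078, 4318 and 17784 against 573, 87.4 and 226; -5.12 ± 1.53, adjusted p = 0.0458) and passed only without lesion replicate 1 when arrays were left out (adjusted p up to 0.127).

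**Figure D3:**
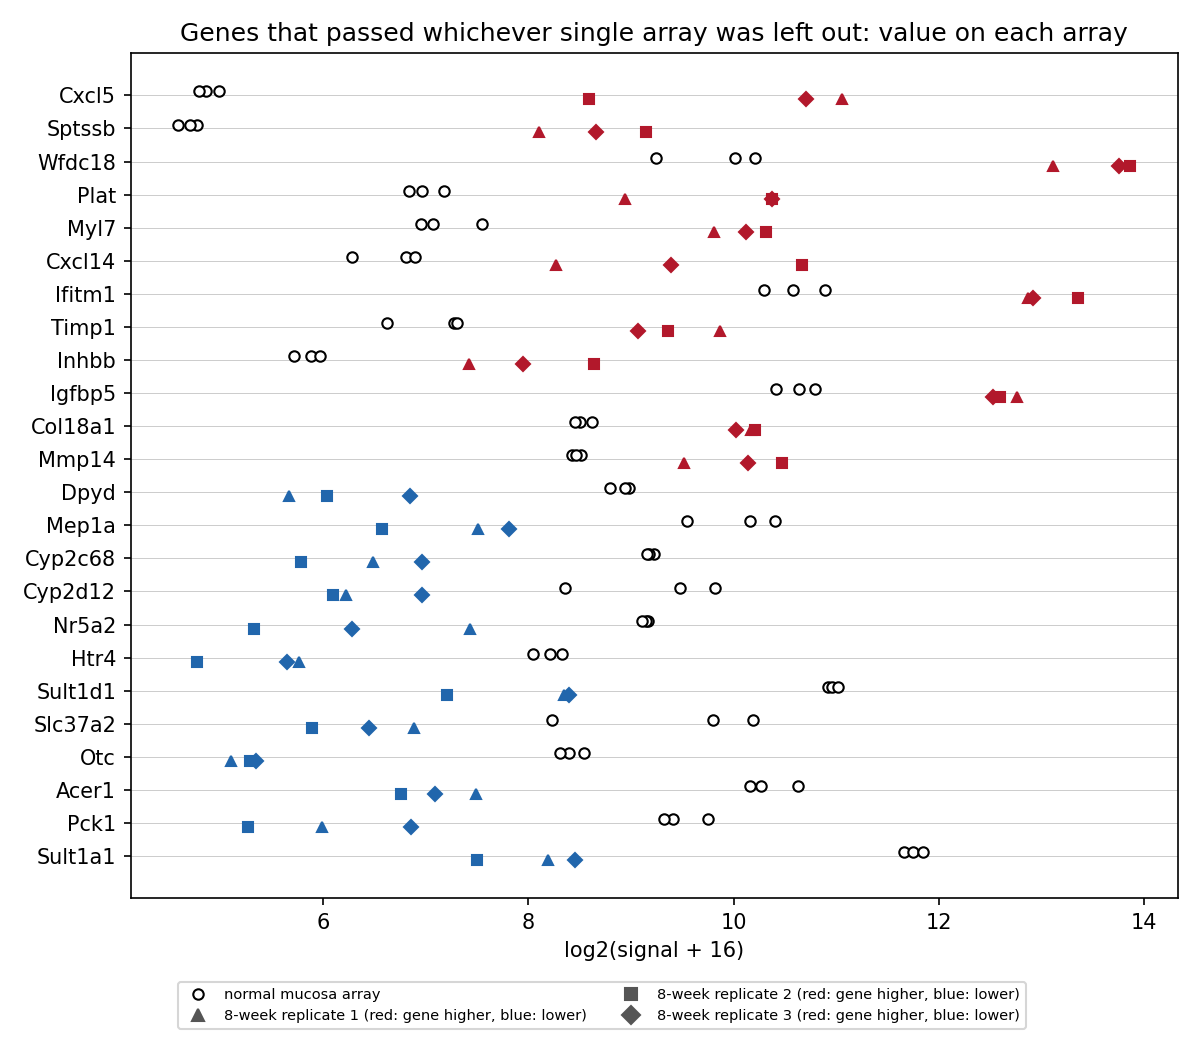
Log2(signal + 16) on each of the 6 arrays (x axis) for the largest increases and decreases among the named genes that passed with every single array left out. Open circles are normal arrays, and red (higher) or blue (lower) symbols are lesion replicates 1 (triangle), 2 (square) and 3 (diamond); in every gene shown the lesion and normal arrays are apart, and Cxcl5 has its lowest lesion array in replicate 2.

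Of 28 colonocyte transport genes 10 fell and 0 rose, with a median of -1.68. The bicarbonate cotransporter Slc4a4 read 619, 1026 and 632 against 73.2, 123 and 131 (-2.63 ± 0.34, adjusted p = 0.00125). The magnesium channel Trpm6 read 1078, 1967 and 695 against 285, 138 and 165 (-2.51 ± 0.44, adjusted p = 0.00641). Slc37a2, a sugar phosphate exchanger, read 1152, 878 and 284 against 103, 43.3 and 71.6 (-3.00 ± 0.47, adjusted p = 0.0043). Slc16a1, the monocarboxylate transporter that takes up butyrate, read 1960, 1979 and 2025 against 1030, 363 and 669 (-1.63 ± 0.32, adjusted p = 0.00955), and the phosphate transporter Slc20a1 fell by 1.85 (SE 0.33, adjusted p = 0.00688). These 5 passed with each array left out, and their groups did not overlap. Between 22 and 23 of the 28 lay below all normal arrays in each lesion array, against 33.3% to 39.7% of all genes, and the list's mean was -1.13, -2.61 and -1.35. The count of 10 was 14 without lesion replicate 1 and 5 without lesion replicate 2, normal replicate 1 or normal replicate 2.

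The classical colonocyte markers did not pass, and their lesion arrays were wide apart. Slc26a3, the chloride-bicarbonate exchanger, read 9611, 12147 and 9518 in normal mucosa and 2993, 76.6 and 1196 in the lesions (-3.90 ± 1.37, adjusted p = 0.0744). Car4, carbonic anhydrase 4, read 4691, 7619 and 4636 against 3690, 30.1 and 884 (-3.36 ± 1.41, adjusted p = 0.125). Every lesion array lay below the normal arrays for both genes, and both passed when lesion replicate 1 was left out. Aqp8 and Slc5a8, a water channel and a butyrate transporter, were also lowest in replicate 2, at 31.5 and 43.7.

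Of 28 xenobiotic metabolism genes 12 fell and 0 rose, with a median of -1.13. Gstm3, a glutathione transferase, read 1412, 1306 and 1329 in normal mucosa and 298, 175 and 280 in the lesions (-2.39 ± 0.33, adjusted p = 0.0021), and Sult1d1 read 1926, 1981 and 2058 against 311, 132 and 322 (-2.98 ± 0.62, adjusted p = 0.0118). The cytochromes Cyp2c68 and Cyp2d12, outside that list, fell by 2.77 (SE 0.40, adjusted p = 0.00283) and 2.79 (SE 0.46, adjusted p = 0.00538). All 4 genes passed with each array left out, and no lesion array reached a normal array. Nr1i2, the xenobiotic receptor PXR, fell by 1.08 (SE 0.32, adjusted p = 0.0469). The count of 12 was 5 without lesion replicate 2 or normal replicate 1 and 7 to 13 without another array.

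Fatty acid oxidation genes changed in smaller steps. Of 18 genes of fatty acid oxidation and ketogenesis, the route by which colonocytes burn butyrate, 6 fell and 0 rose, with a median of -0.49. The regulator Ppara read 74.2, 75.8 and 77.0 against 41.2, 33.0 and 39.1 (-0.77 ± 0.09, adjusted p = 5.06e-04), the dehydrogenase Acadm read 2016, 1960 and 2056 against 1000, 1464 and 1131 (-0.76 ± 0.16, adjusted p = 0.0146), and the carnitine transferase Cpt1a fell by 0.64 (SE 0.14, adjusted p = 0.0123). The count of 6 became 4 without lesion replicate 2 or normal replicate 2. Of 20 retinoid metabolism genes 2 rose and 2 fell, against 4.84% and 6.42% of all genes, with a median of -0.11. The retinol dehydrogenase Rdh10 rose by 1.70 ± 0.38 (adjusted p = 0.0172) and the retinol receptor Stra6 by 1.18 ± 0.34 (adjusted p = 0.0419); both lost the call without lesion replicate 2 or 3 or normal replicate 2 or 3, and Stra6 also without normal replicate 1 (adjusted p up to 0.0689 and 0.138). Aldh1a1, which makes retinoic acid, read 742, 983 and 965 against 274, 206 and 240 (-1.83 ± 0.27, adjusted p = 0.0031). The retinol dehydrogenase Rdh5 read 104, 96.6 and 87.1 against 36.6, 36.1 and 46.7 (-1.0 ± 0.10, adjusted p = 3.96e-04), the smallest adjusted p among the named genes. Hpgd, which breaks down prostaglandins, read 1779, 3568 and 1973 against 363, 684 and 416 (-2.27 ± 0.44, adjusted p = 0.00952). None of these 4 single genes (Ppara, Aldh1a1, Rdh5, Hpgd) had overlapping groups, and each passed with every array left out.

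Some genes of secretory cells fell. Atoh1, the transcription factor that commits crypt cells to secretory fates, read 813, 843 and 907 in normal mucosa and 214, 176 and 322 in the lesions (-1.82 ± 0.35, adjusted p = 0.00952; up to 0.0406 with an array left out). Of 23 goblet cell genes 6 fell and 0 rose, with a median of -0.81, and the list's mean was -1.12, -1.16 and -0.81. Klk1, a kallikrein, read 12861, 12107 and 14395 against 2877, 1027 and 3850 (-2.53 ± 0.71, adjusted p = 0.0375; up to 0.12 without lesion replicate 2 or any 1 normal array). Muc2, the main secreted mucin, read 10490, 8346 and 11673 against 5141, 5988 and 8322 and did not pass (-0.66 ± 0.90, adjusted p = 0.657). Its groups did not overlap, and with only the 6 arrays its limma adjusted p was 0.11. The count of 6 was 2, 1 and 5 without lesion replicate 1, 2 or 3 and 1 without any 1 normal array.

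Of 18 enteroendocrine genes 4 fell (Scg2, Scg3, Scg5 and Pcsk1n, granule proteins of hormone-secreting cells), and 1 rose (the peptide Nts, by 1.19 ± 0.29, adjusted p = 0.0234, kept only without lesion replicate 1 when arrays were left out, up to 0.0794), with a median of -0.74. Scg3 read 107, 109 and 110 in normal mucosa and 73.7, 58.7 and 61.6 in the lesions (-0.63 ± 0.12, adjusted p = 0.00776; with each array left out up to 0.0386). The hormones Insl5 and Gcg read 26.9 and 10.3 in lesion replicate 2, against 1892.5 and 773 in replicate 1, and did not pass. The 4 became 10 without lesion replicate 1, and 1 to 3 without any other array.

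Genes of the epithelium as a whole were mostly a little below normal and did not pass. Cdh1, E-cadherin, read 4687, 5221 and 5690 in normal mucosa and 3740, 4000 and 4659 in the lesions (-0.33 ± 0.69, adjusted p = 0.781). Its groups did not overlap, and with only the 6 arrays its limma adjusted p was 0.142. Of 20 general epithelial genes 1 rose and 0 fell, with a median of -0.44. In each lesion array 16 of the 20 lay below all normal arrays, against 33.3% to 39.7% of all genes, and 13 did so in all 3, against 17.9%. The lineage factors Cdx1 and Hnf4a changed by -1.24 (adjusted p = 0.109) and -1.01 (adjusted p = 0.192). The gene that rose was the claudin Cldn4 (342, 267 and 162 against 370, 2055 and 1104; 1.88 ± 0.54, adjusted p = 0.0413), which kept its call only without lesion replicate 1 (adjusted p up to 0.135 otherwise). With only the 6 arrays 4 of the 20 fell and 0 rose, and without the inflamed group 3 fell and 1 rose.

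Smooth muscle genes were lower in every lesion array. All 17 measured genes lay below all 3 normal arrays in each of lesion replicates 1, 2 and 3, against 17.9% of all genes, and 8 of the 17 passed, with a median of -1.21 and list means of -1.20, -1.16 and -1.21. Myl9, the smooth muscle myosin light chain, read 6217, 8322 and 6717 in normal mucosa and 2402, 2843 and 3423 in the lesions (-1.29 ± 0.33, adjusted p = 0.0272; up to 0.103 without lesion replicate 2 or any 1 normal array). Casq2, a calcium store protein, read 194, 298 and 176 against 89.2, 106 and 91.7 (-1.07 ± 0.20, adjusted p = 0.0089) and passed with each array left out. Normal replicate 2 was the highest normal array of the list, at 0.34 against -0.29 and -0.04. The count of 8 was 4, 1 and 2 without lesion replicate 1, 2 or 3, and 2, 1 and 1 without normal replicate 1, 2 or 3. It was 11 with only the 6 arrays, 2 without the inflamed group, 1 with arrays weighted by group and 2 with the replicate number as a block. The summed signal of the list was 52817 to 76547 in normal mucosa and 27550 to 33782 in the lesions. Of 15 neuron and glia genes 3 fell, among them Snap25, a synaptic vesicle fusion protein (102, 165 and 86.2 against 42.3, 31.1 and 48.5; -1.21 ± 0.25, adjusted p = 0.011; 0.0544 without normal replicate 2), and 0 passed without normal replicate 2. The part of muscle and nerve content of the samples in the other results was not tested.

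Of 17 clock genes 4 fell and 0 rose, against 6.42% and 4.84% of all genes, with a median of -0.33. Per2, a clock repressor, read 251, 236 and 204 in normal mucosa against 49.1, 48.1 and 111 (-1.60 ± 0.35, adjusted p = 0.0149), and Arntl, the clock activator BMAL1, fell by 1.08 (SE 0.28, adjusted p = 0.0294). Per3 and Hlf were the others. The 4 became 0 without lesion replicate 2 or normal replicate 2 and 2 without normal replicate 1. Per2 was lost without either of these replicates 2 (adjusted p up to 0.0565), and Arntl without lesion replicate 2 or 3 or normal replicate 1 or 2 (up to 0.119). The hour of collection is not given in the sources used here.

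Against high grade dysplasia of week 6, which was collected 9 days after DSS and before the third cycle, no gene passed, while 423 of the 12877 genes had an unadjusted p below 0.05. S100a8 differed by 0.52 (95% interval -2.25 to 3.29), Cxcl5 by 0.60 (-1.65 to 2.85) and Lcn2 by -0.31 (-2.59 to 1.97), so that differences of several-fold in either direction lie within these intervals. Sptssb differed by 0.00 (-0.96 to 0.97), Axin2 by -0.25 (-1.74 to 1.25) and Mki67 by -0.02 (-0.43 to 0.40). Sult1a1, Otc and Pck1 differed by -2.18, -1.93 and -2.08 log2 units, lower at week 8, with unadjusted 95% intervals of -3.51 to -0.86, -2.87 to -1.0 and -3.22 to -0.95 and an adjusted p of 0.999 each. Fitted on the arrays of these 2 groups alone, 1 gene passed: Guca2a, the precursor of the colonocyte hormone guanylin, lower at week 8 (-1.40 ± 0.09, adjusted p = 0.0428).

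Against carcinoma of week 20 no gene passed either, and 1422 of the 12877 genes had an unadjusted p below 0.05. S100a8 differed by 1.58 (-1.19 to 4.35) and Sptssb by 0.12 (-0.84 to 1.09). Sult1a1 and Otc differed by -2.68 (-4.00 to -1.35, adjusted p = 0.224) and -2.22 (-3.16 to -1.29, adjusted p = 0.195), lower at week 8. Without lesion replicate 1, Dnajc6 (2.01) and Sox11 (2.39) were higher at week 8; without lesion replicate 3, the predicted gene 2810025M15Rik (0.79) was; and without carcinoma replicate 1, Irx4 (-1.56) and Sox17 (-2.53) were lower. A miss of the threshold does not show that these lesions were alike. Carcinoma replicates 2 and 3 also carried accessory gland genes, at 8297 and 8618 for Pbsn.

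**Figure D4:**
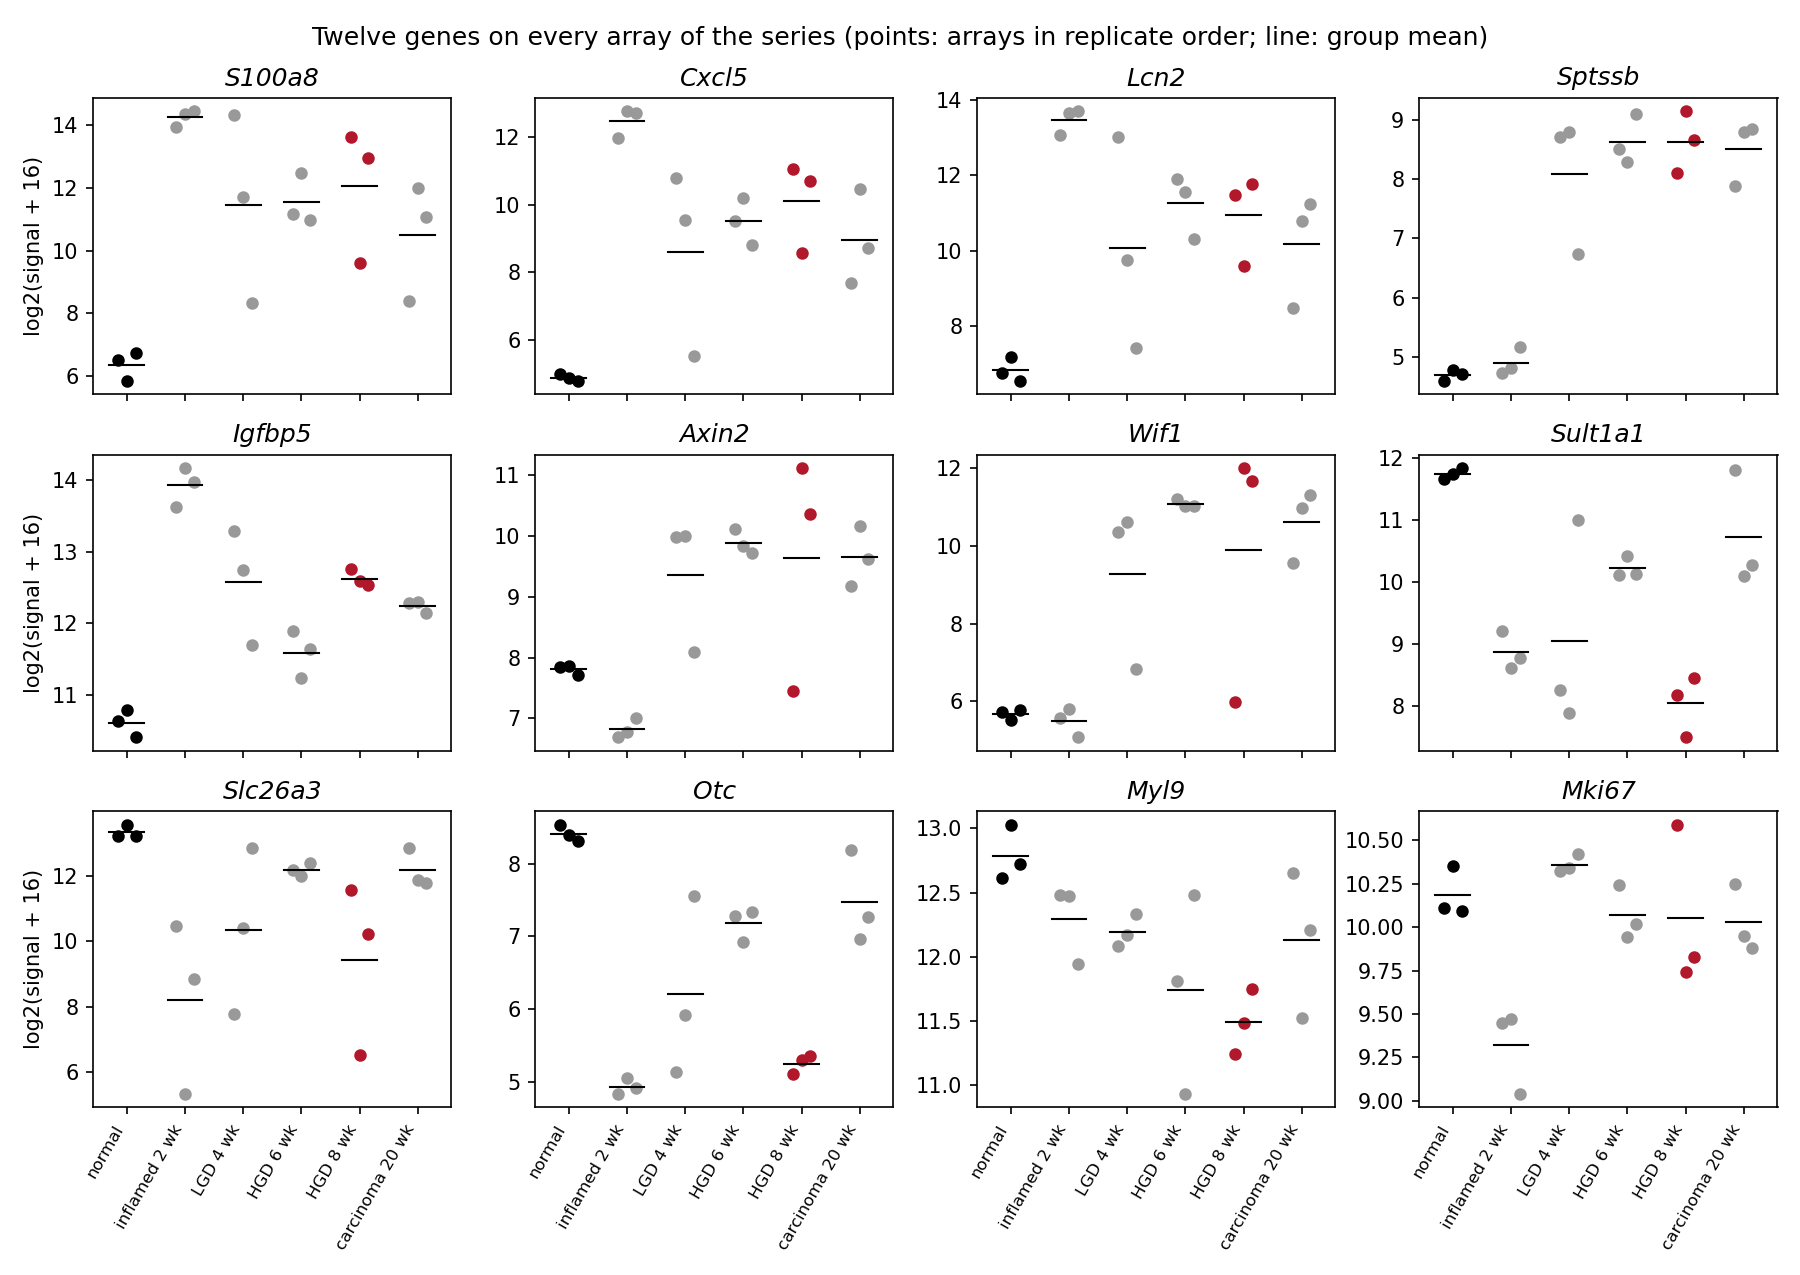
Log2(signal + 16) of selected genes (y axes, separate scales) on every array of the 6 groups (x axis); red points are the 8-week lesions, black points normal mucosa, and lines group means. S100a8, Cxcl5 and Lcn2 have means above normal in all AOM/DSS groups, with low grade dysplasia replicate 3 near normal for Cxcl5 (5.53) and Lcn2 (7.43), Axin2 and Wif1 have 1 of 3 8-week arrays near the normal level, and Otc and Sult1a1 are lower at 8 weeks (5.25 and 8.04) than at 6 weeks (7.18 and 10.23).

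Against inflamed mucosa of week 2, collected on day 14 while DSS was still given, 2695 genes (20.9%) were higher in the 8-week lesions and 2370 (18.4%) lower, 39.3% in all. The 18S signal (log2) was 9.24, 8.56 and 11.14 in the inflamed arrays and 11.86, 11.48 and 11.34 at week 8, and its part in the result was not tested. Mitosis genes were higher at week 8 for 23 of 24, general epithelial genes for 19 of 20, goblet cell genes for 18 of 23 and Wnt targets for 17 of 28, with medians of 1.12, 2.66, 2.19 and 1.70. Neutrophil genes were lower for 12 of 20 (median -2.64), macrophage genes for 17 of 23 (-1.50), collagens for 15 of 19 (-1.36), endothelial genes for 18 of 22 (-1.14) and enteric neuron and glia genes for 14 of 15 (-1.82). The median over all genes was 0.04.

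Named genes show the size of this gap. Marco and Cd163, scavenger receptors of macrophages, were lower at week 8 (-5.50 ± 0.19, adjusted p = 2.68e-10, and -5.11 ± 0.38, adjusted p = 1.05e-06), and so was Il6 (-4.80 ± 0.90, adjusted p = 8.30e-04). S100a8 did not pass (-2.19 ± 1.30, adjusted p = 0.196), nor were Cxcl5 (-2.38 ± 1.05, adjusted p = 0.0875) and Lcn2 (-2.53 ± 1.07, adjusted p = 0.0739). The goblet and Paneth cell products Ang4 and Reg4 were higher at week 8, by 6.24 ± 0.82 (adjusted p = 5.89e-05) and 5.17 ± 0.68 (adjusted p = 5.88e-05). Sptssb was at the normal level in inflamed mucosa, at 4.89 against 4.69 in normal mucosa and 8.64 in the 8-week lesions, a difference of 3.74 ± 0.45 (adjusted p = 3.10e-05). Slc37a2 was at 6.33 in inflamed mucosa and 6.41 at week 8, against 9.41 in normal mucosa (difference 0.08 ± 0.47, adjusted p = 0.908).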

How the data were processed

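RNA of 18 colorectal samples, 6 groups of 3 labelled as biological replicates, was hybridised to Affymetrix Mouse Genome 430 2.0 arrays. The deposited value table holds a linear intensity (signal) for 45101 probe sets; MAS5 is named in the submitters' processing notes, with version, scaling and settings not given in the sources used here. No array was renormalised. Control probe sets and those without exactly 1 gene in the platform annotation (34945 had 1, 932 several, 9160 none) were left out. Probe sets above the table median (56.6) on at least 3 arrays were kept, the one with the highest mean stood for its gene (12877 genes), and log2(signal + 16) was fitted with limma 3.58.1 in R 4.3.3 (lmFit, eBayes with intensity trend; 12 residual degrees of freedom, 6 group means) and adjusted by Benjamini-Hochberg. Scripts were tested on simulated data. By rule, the genes named are the 25 largest increases and the 25 largest decreases with non-overlapping arrays. The rule added up to 6 members per list that passed (65 lists, some sharing genes), or the smallest p where none did. It also took 17 always named genes and the largest of the other contrasts. Other genes, such as Cxcl2, Mmp7 and Insl5, were picked outside this rule, and counts of named genes leave them out. Genes given in full include ones that passed with each array left out and ones that did not. Members and lists were chosen with earlier results of these data known, and the accessory gland list after the arrays' spread was seen. Deviations of same-numbered lesion and normal arrays correlated weakly (r = 0.09, 0.07 and 0.06, none above 0.1), so no pairing was used. Alternatives covered the pseudocount, filter, scaling, probe set choice, groups fitted, weights, replicate block and single arrays left out.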

Additional observations from a re-analysis of the deposited data

Results flagged for a closer look

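In 16 named genes the 8-week lesions and the inflamed mucosa of week 2 moved to opposite sides of normal mucosa. Each passed the threshold in limma (Benjamini-Hochberg adjusted p below 0.05, 3 arrays against 3). A direct difference between the 2 states follows from that choice of genes and adds no support. The count of such genes among all genes is not given here. Genes of nerve and hormone-secreting cells were below normal at week 8 and above it at week 2, and lower at week 8 than at week 2 by these log2 differences: Snap25 -2.69, Scg2 -2.72, Scg3 -1.49, Scg5 -3.04, Pcsk1n -1.23, Elavl4 -1.67 and Gfra1 -0.90. The same held for the scavenger receptor Cd163 (-5.11), the prostaglandin receptor Ptger3 (-2.25), the metallothionein Mt1 (-1.67), the homeobox gene Hoxb5 (-1.52) and the growth factor inhibitor Spry2 (-1.02). The reverse held for the mitotic checkpoint gene Mad2l1 (1.41), the replication gene Gins2 (0.78), the sterol enzyme Nsdhl (0.97) and the progenitor marker Prom1 (1.38). Against normal mucosa, Scg3 and Mad2l1 kept their call at week 8 with every single array left out, while Gins2 kept it in 0 of 6 such fits, Spry2, Gfra1, Scg5 and Nsdhl in 1 and the others in 2 to 5. The comparisons with normal share the normal arrays, and their causes were not tested.

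Among 3381 probe sets without a single gene, which the gene comparison leaves out, 109 were higher and 275 lower in the 8-week lesions than in normal mucosa. Over the genes tested 4.84% were higher and 6.42% lower, and a difference from those shares was not tested. A probe set for the alpha-defensins Defa30 and Defa24 changed by 5.01 (limma adjusted p = 0.0311) and one for the haemoglobin genes Hba-a1 and Hba-a2 by 3.44 (limma adjusted p = 0.0364).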

How the results depend on the processing

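With 623 genes higher and 827 lower as reported, the counts stayed within 1.5 times under another pseudocount, no filter, quantile or median scaling, other probe set rules, no intensity trend and without the inflamed group. They were 225 and 536 on the 6 arrays alone (2925 against inflamed mucosa and 1 against week 6), and 261 and 377 with arrays weighted by group. Leaving out 1 lesion or normal array gave 118 to 1318 higher and 215 to 884 lower; leaving out both replicates 2, chosen after seeing the data, gave 11 and 35. Against carcinoma 0 to 2 genes passed with an array left out. With the replicate number as a block the counts were 490 and 619, and 147 of 183 named calls remained. By the deviations described above, and not by the array values themselves, each lesion array correlated best with the normal array of its own number. These correlations were weak, a hint from the data and not the design. Of 4248 values of named genes under 29 alternatives 3107 kept direction and side of the threshold, 1106 lost their call, 20 gained one and 15 turned sign, with causes not tested. Of the genes that passed, Lrig1 turned, to 0.18, with shared probe sets left out. Of the rest, Smpx went to -0.03 with pseudocount 1. With 1 array, or both replicates 2, left out, Smpx lay between -0.86 and 1.65, Ang4 between -1.92 and 0.65, Ptgs2 between -0.76 and 1.21, Itln1 between -0.67 and 1.72 and Mki67 between -0.40 and 0.11. Signals near the lowest in the table (3.39), such as those of Il6 in normal mucosa, limit how far a fold can be measured.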

Other observations

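Lesion replicates 1 and 2 lay at opposite ends for several gene groups, with replicate 3 between or beside one of them. The epithelial lectins Reg3b and Reg3g, which bind bacteria, were at 13.05 and 13.15 log2(signal + 16) in replicate 1, 6.39 and 6.64 in replicate 2 and 12.52 and 12.14 in replicate 3, against means of 5.39 and 5.99 in normal mucosa. Cxcl9, a chemokine induced by interferon gamma, stood at 10.38, 5.69 and 9.44, against 7.28 in normal mucosa. In the other direction, the lipase-related genes Pnliprp1 and Pnliprp2 stood at 5.41 and 6.46 in replicate 1, 13.23 and 13.10 in replicate 2 and 12.37 and 11.82 in replicate 3, against 5.68 and 6.47 in normal mucosa, and the zinc transporter Slc30a2 at 5.41, 11.33 and 10.59, against 5.56. These genes were picked for their difference between replicates 1 and 2, so the values are a description with no test.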
